A study of Mus musculus with 30 samples.

Results

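The 46 genes described here encode proteins that take a cell through mitosis: the kinases and cyclins of mitotic entry, the anaphase promoting complex, the spindle checkpoint, the kinetochore, the spindle and its motors, the cleavage furrow and the mitotic chromosome. They were chosen by symbol, and each of the 46 matched 1 of the 43629 Ensembl gene IDs in the count tables. Messenger RNA was sequenced from bone marrow derived macrophages of C57BL/6 mice grown in CSF-1 at 20 ng/mL to day 7, in 30 libraries that form 10 groups of 3. All groups carry CSF-1, the growth factor on which these cells survive and divide, and no label gives the time for which a stimulus was left on. The wild type experiment held macrophages given IL-4 with prostaglandin E2 (PGE2), IL-4 with valinomycin, IL-4 alone, or no stimulus. Doses were 10 µM for PGE2, 10 nM for valinomycin, an ionophore that lets potassium ions cross membranes and lowers mitochondrial membrane potential, and 20 ng/mL for IL-4. The hairpin experiment held macrophages transduced with a lentiviral short hairpin RNA against Etv1, an ETS-family transcription factor (shEtv1), or with a control hairpin (shCtrl), each given IL-4 with PGE2, IL-4 alone, or no stimulus. The labels name 1 Etv1 and 1 control hairpin group, so an effect of the Etv1 hairpin beyond Etv1 cannot be told apart from the loss of Etv1. No label ties the 3 libraries of a group to different mice or dishes, and the p-values therefore speak for library-to-library spread alone, which is possibly technical.

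Most mitotic genes are silent in resting cells and are transcribed together late in the cell cycle, from G2 into mitosis. Their promoters often carry a cell cycle genes homology region (CHR), read by the MuvB complex with either repressive partners or the activators B-Myb (Mybl2) and FoxM1 (Foxm1), and CCAAT boxes, read by NF-Y. Macrophages grown from marrow in CSF-1 divide before they mature, so RNA of these genes in such a culture may come mainly from the cells that are still cycling, which was not measured here.

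Wild type libraries held 10514496 to 13414293 counts and hairpin libraries 6924973 to 30473040, and all 46 genes had counts in every library. The 46 genes took 0.149% to 0.240% of the counts in wild type and 0.0641% to 0.186% in hairpin libraries. Etv1 itself was lower in shEtv1 than in shCtrl libraries, at 8.89 ± 1.08 and 28.0 ± 5.73 CPM (read counts scaled to library size) under IL-4 with PGE2, 5.33 ± 0.58 and 13.9 ± 2.07 CPM under IL-4, and 3.44 ± 1.23 and 10.6 ± 0.289 CPM without stimulus (mean ± SD, n = 3 each). Macrophage markers (Adgre1, Mertk, Fcgr1, Cd68, Csf1r, Itgam, Cd14 and Lyz2) summed to 14361 to 19083 CPM in wild type, 8902 to 10386 CPM in shEtv1 and 15895 to 21465 CPM in shCtrl libraries. Neutrophil markers summed to 203 to 332 CPM in wild type libraries and to at most 1.17 CPM in hairpin libraries, and erythroid, lymphocyte and mast cell markers were below 1 CPM in every library. The 3 shCtrl libraries numbered 2 stood apart from their fellows in all 3 conditions: their replicate comparisons gave a chi-square of 12.943 to 21.869 per degree of freedom, against 2.93 to 4.888 between shCtrl replicates 1 and 3. Without those 3 libraries each count of mitotic genes given here stayed within 1.5 times its value.

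Per kilobase of exon, the highest wild type levels were 25 CPM per kb for Mki67, which encodes the Ki-67 protein that coats mitotic chromosomes, 21.9 for the condensin subunit Smc4 and 21.4 for cyclin B2 (Ccnb2). The lowest was 1.13 CPM per kb for Cdc25c, the phosphatase that activates Cdk1. In hairpin libraries the same measure ran from 0.53 for Cdc25c to 15.9 for Smc4. Cdc25c rested on 7 to 131 counts per hairpin library, so its values are among the least precise. Exons of some of these genes overlap those of a neighbour, over 29.3% of exon length for Kif20a (Cdc23) and 22.77% for Ube2c (Tnnc2), and the strand setting of the counting is not given, so their counts may include the neighbour's reads.

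Promoters were read because many of the genes moved together in the comparisons given here. RefSeq promoter sequence (GRCm38.p6) was at hand for 37 of the 46 genes, with 39 promoters. In the 250 bases before the start, CHR letters (TTTGAA or TTCGAA, either strand) stood in 18 of the 39 (46.2%), against 17.1% of all 32851 RefSeq promoters. CCAAT, on either strand, stood in 31 (79.5%), against 33.8% of all, and both motifs in 16 (41.0%), against 6.02%. An E2F-type site (TTTCCCGC or TTTGGCGC) was found in 2 (5.13%, against 1.3%) and an ETS-type site (CCGGAAGT) in 5 (12.8%, against 2.88%). The motifs were searched one by one, so matches may share bases, and a match is a description of letters, not of binding. The stretches printed here end before the earlier of the RefSeq and GENCODE starts and all but that of Cenpa lie on the minus strand. Ccnb2 (chr9:70421555-70421674), Cdc20 (chr4:118437353-118437472), Top2a (chr11:99024190-99024309) and Cenpf (chr1:189688087-189688206) are shown because they were lower with PGE2 in shCtrl cells, and Cenpa (chr5:30666657-30666776), Cdk1 (chr10:69352939-69353058), Aurka (chr2:172370571-172370690) and Spc25 (chr2:69206214-69206333) because they were the 4 that were higher there. They were picked after those values were seen. Capitals mark CHR and CCAAT letters on either strand.
Ccnb2: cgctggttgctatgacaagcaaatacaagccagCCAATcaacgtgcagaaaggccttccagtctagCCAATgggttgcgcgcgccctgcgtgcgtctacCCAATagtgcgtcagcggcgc
Cdc20: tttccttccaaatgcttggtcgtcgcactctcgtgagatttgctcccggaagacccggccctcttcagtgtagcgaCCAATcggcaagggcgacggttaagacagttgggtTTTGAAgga
Top2a: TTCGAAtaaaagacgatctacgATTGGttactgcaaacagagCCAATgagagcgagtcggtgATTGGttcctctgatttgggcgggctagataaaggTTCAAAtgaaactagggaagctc
Cenpf: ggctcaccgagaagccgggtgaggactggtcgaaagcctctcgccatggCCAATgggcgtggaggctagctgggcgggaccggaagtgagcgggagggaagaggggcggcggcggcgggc
Cenpa: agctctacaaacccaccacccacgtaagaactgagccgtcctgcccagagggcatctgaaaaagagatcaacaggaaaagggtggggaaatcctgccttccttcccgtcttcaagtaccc
Cdk1: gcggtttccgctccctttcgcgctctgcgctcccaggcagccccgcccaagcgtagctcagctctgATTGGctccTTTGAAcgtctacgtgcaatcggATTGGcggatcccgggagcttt
Aurka: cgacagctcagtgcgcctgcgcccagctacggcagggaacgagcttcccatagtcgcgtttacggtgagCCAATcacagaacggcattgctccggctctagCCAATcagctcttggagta
Spc25: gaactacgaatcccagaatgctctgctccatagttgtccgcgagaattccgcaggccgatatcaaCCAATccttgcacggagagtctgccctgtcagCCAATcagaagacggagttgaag
CCAAT letters stood in each of these stretches but that of Cenpa, whose CCAAT letters lie nearer the RefSeq start than the bases shown. In the 250-base windows, CHR letters stood in 1 (Cdk1) and CCAAT in 4 of the 4 genes higher with PGE2 in shCtrl cells, and CHR in 13 and CCAAT in 21 of the 29 lower genes with a promoter at hand. These counts are a description, with no test.

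The summed level of the 46 genes gives the outline, as a description with no test. In wild type macrophages it was 1577 ± 46.7 CPM under IL-4 with PGE2, 2237 ± 63.7 CPM under IL-4 with valinomycin, 1935 ± 50.3 CPM under IL-4 and 2334 ± 28.3 CPM without stimulus (mean ± SD, n = 3 each). In shEtv1 macrophages it was 662 ± 11.0 CPM under IL-4 with PGE2, 657 ± 16.7 CPM under IL-4 and 912 ± 40.4 CPM without stimulus. In shCtrl macrophages it was 715 ± 12.7, 937 ± 52.8 and 1744 ± 126 CPM in the same conditions. The sum was lower with IL-4 in all 3 backgrounds, lower again with PGE2 in wild type and shCtrl cells, and about level with and without PGE2 in shEtv1 cells. That level sum holds changes in both directions. In shEtv1 cells the mean with PGE2 and with IL-4 alone was 25.5 and 9.96 CPM for Cenpa and 19.9 and 10.7 CPM for Spc25. It was 41.5 and 48.1 CPM for Top2a, 45.4 and 50.9 CPM for Mki67 and 13.9 and 20.0 CPM for Kif11. In bulk RNA, fewer dividing cells and less RNA per dividing cell cannot be told apart, here and in all that follows.

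**Figure D1:**
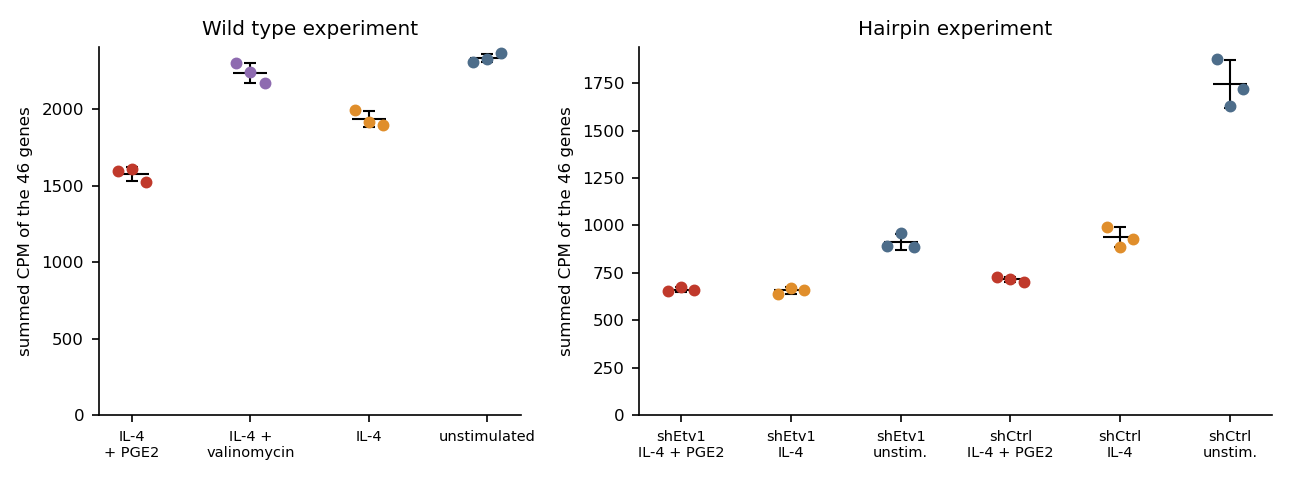
Summed CPM of the 46 genes in each library (points) with the group mean and SD (bars), for the wild type experiment and the hairpin experiment. The 3 wild type IL-4 with PGE2 libraries sit at 1524 to 1610 CPM, below the 3 IL-4 libraries at 1895 to 1991 CPM, while the shEtv1 libraries with PGE2 (655 to 675 CPM) overlap those with IL-4 alone (638 to 671 CPM).

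IL-4 against no stimulus in wild type macrophages asks what the alternative activator does to cells in growth factor. With IL-4, 30 of the 46 genes were lower at an adjusted p under 0.05 (edgeR's quasi-likelihood test, Benjamini-Hochberg over all 12824 genes tested), against 22.4% of all genes called lower and 24.0% called higher, and the other 16 did not pass. The median log2 fold change of the 46 was -0.30 and that of all genes 0.01. All 3 cytokinesis genes, 5 of 6 chromosome structure genes and 6 of 8 kinesins fell, against 3 of 7 genes of mitotic entry and 1 of 3 of the anaphase promoting complex and separase.

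Top2a, the topoisomerase that untangles sister chromosomes, was at 175, 170 and 170 CPM with IL-4 and at 209, 210 and 224 CPM without stimulus. It fell by 0.32 ± 0.05 on the log2 scale (log2 fold change ± SE, adjusted p = 2.08e-06), and the groups did not overlap. Mad2l1, the checkpoint protein that holds back anaphase, was at 33.5, 31.6 and 34.5 CPM with IL-4, against 44.6, 45.1 and 46.2 CPM, a log2 fold change of -0.45 ± 0.06 (adjusted p = 1.81e-06). Smc2, a condensin subunit, was at 63.0, 56.4 and 57.3 CPM with IL-4 and 74.3, 77.7 and 84.2 CPM without, again with no overlap (log2 fold change -0.42 ± 0.06, adjusted p = 2.22e-06). The largest falls were those of Pbk, a mitotic kinase (-0.63 ± 0.10), Ndc80, the kinetochore's microtubule grip (-0.53 ± 0.08), and Kif15, a spindle motor (-0.52 ± 0.08). Pbk was at 12.9, 11.3 and 11.8 CPM with IL-4 and at 17.5, 17.5 and 20.3 CPM without. Ndc80 was at 15.4, 17.6 and 16.6 CPM with IL-4, against 22.8, 24.7 and 24.1 CPM. Kif15 was at 19.4, 17.5 and 17.4 CPM with IL-4, against 25.1, 25.7 and 26.8 CPM, so for all 3 genes every IL-4 library lay below every unstimulated one.

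Cdk1, Ccnb1 and Plk1, at the core of mitotic entry, did not pass. Cdk1, the kinase that starts mitosis, was at 68.8, 70.6 and 74.4 CPM with IL-4 and at 75.7, 78.4 and 80.1 CPM without stimulus (log2 fold change -0.13 ± 0.06, adjusted p = 0.0641). It did pass with RLE scaling (0.0459), with only the compared groups (0.0242) and without IL-4 replicate 3, PGE2 replicate 1 or any 1 valinomycin library (0.0322 to 0.0498). Cyclin B1 (Ccnb1) was at 28.7, 24.6 and 28.7 CPM with IL-4 and 29.3, 29.2 and 30.9 CPM without (-0.13 ± 0.08, adjusted p = 0.222). Plk1, the Polo kinase of spindle and entry, was at 24.8, 26.2 and 25.2 CPM with IL-4 and at 27.2, 28.2 and 28.6 CPM without (-0.14 ± 0.08, adjusted p = 0.151). For these 3 genes the groups did not overlap. With 3 libraries a group that is a weak sign, and the share of all genes apart in this way is not given here, so none of the 3 is read as lower. Cdc20, the activator of the anaphase promoting complex, was at 30.1, 29.8 and 31.6 CPM with IL-4 and 29.0, 29.9 and 30.2 CPM without, and the groups overlapped (0.04 ± 0.08, adjusted p = 0.721). Aurkb, the Aurora kinase of the chromosomal passenger complex, was at 22.1, 19.0 and 20.4 CPM with IL-4 and at 24.6, 24.4 and 22.2 CPM without. Its fall of 0.21 ± 0.08 on the log2 scale had an adjusted p of 0.037, which became 0.112 with DESeq2 and 0.0836 to 0.169 without unstimulated replicate 1 or 2 or IL-4 replicate 2 or 3. Mki67 was at 250, 224 and 219 CPM with IL-4 and 272, 280 and 287 CPM without (-0.28 ± 0.06, adjusted p = 0.000727).

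Other genes of the pathway, from a list of 75 regulators, kinetochore, cohesin and condensin genes, moved likewise: 48 fell and 2 rose. Foxm1 fell by 0.34 ± 0.08 and Mybl2 by 0.68 ± 0.13 on the log2 scale, and 35 of 40 DNA replication and S phase genes fell. Of 26 tested genes of arrest and growth control 6 rose and 9 fell, against 24.0% of all genes higher and 22.4% lower. Cdkn1a, the p21 inhibitor of cyclin-dependent kinases, rose by 0.89 ± 0.06 and Myc by 1.18 ± 0.08, while Cdkn1b, the p27 inhibitor, fell by 0.62 ± 0.14, the antiproliferative factor Btg1 by 1.21 ± 0.06 and the retinoblastoma gene Rb1 by 0.65 ± 0.07. Of 8 macrophage markers 5 were lower and 2 higher with IL-4, with sums of 15695 to 17072 CPM with IL-4 and 18467 to 19083 CPM without. Early granulocyte markers (4 genes, 3 tested, Mpo higher) summed to 14.1 to 17.1 CPM with IL-4 and 7.63 to 8.52 CPM without, and the part of either list in the result was not tested.

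PGE2 added to IL-4 lowered the mitotic genes further in wild type macrophages. With PGE2, 35 of the 46 were lower, against 29.5% of all genes, 1 was higher, against 29.9% of all, and 10 did not pass. The median log2 fold change was -0.36. All 8 kinesins, all 4 checkpoint genes and all 3 genes of the anaphase promoting complex and separase fell, while 3 of 6 chromosome structure genes did.

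Cdc20 was at 20.0, 18.9 and 15.9 CPM with PGE2 and at 30.1, 29.8 and 31.6 CPM with IL-4 alone. It fell by 0.73 ± 0.09 on the log2 scale (adjusted p = 1.25e-07), with no overlap. Anln, the anillin scaffold of the cleavage furrow, was at 28.0, 24.8 and 25 CPM with PGE2, against 42.1, 42.7 and 41.9 CPM (-0.70 ± 0.07, adjusted p = 3.07e-09). Cyclin A2 (Ccna2) was at 38.0, 38.3 and 39.4 CPM with PGE2 and at 63.2, 58.4 and 54.1 CPM with IL-4 alone (-0.60 ± 0.07, adjusted p = 1.08e-07), again apart. Ttk, the checkpoint kinase Mps1, was at 6.37, 5.83 and 5.93 CPM with PGE2, against 10.9, 8.05 and 10.1 CPM, a log2 fold change of -0.67 ± 0.14 (adjusted p = 0.000193). Aurkb fell by 0.46 ± 0.09 (15.1, 15 and 14.5 CPM with PGE2), Plk1 by 0.40 ± 0.08 (21.8, 18.4 and 17.3 CPM) and Ccnb1 by 0.33 ± 0.09 (22.9, 19.1 and 23.2 CPM). In each of these 3 every PGE2 library lay below every IL-4 library. Mki67 was at 192, 198 and 165 CPM with PGE2 (-0.32 ± 0.06) and Top2a at 144, 151 and 140 CPM (-0.24 ± 0.05, adjusted p = 9.4e-05), both below their IL-4 libraries.

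The exception in direction was Aurka, the Aurora kinase of centrosomes and spindle poles, at 26.0, 25.4 and 24.2 CPM with PGE2 and 20.8, 21.8 and 20.0 CPM with IL-4 alone. It rose by 0.27 ± 0.07 on the log2 scale (adjusted p = 0.00262), and the groups did not overlap. Cdk1 was at 63.0, 69.9 and 66.5 CPM with PGE2, against 68.8, 70.6 and 74.4 CPM, which overlapped (-0.10 ± 0.06, adjusted p = 0.138). Cenpa, the histone variant that marks the centromere, had a log2 fold change of 0.11 ± 0.07 and did not pass (adjusted p = 0.158).

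Of the 75 other pathway genes 38 fell and 6 rose with PGE2. Mybl2 fell by 1.61 ± 0.17 and Foxm1 by 0.50 ± 0.08 on the log2 scale, and Wee1, the kinase that restrains Cdk1, by 1.54 ± 0.11. The replication list fell more than the mitotic genes by its median: 35 of 40 fell, with a median log2 fold change of -0.98. Of the 26 arrest and growth control genes 11 rose and 10 fell, against 29.9% of all genes higher and 29.5% lower. Among them Cdkn1b rose by 1.06 ± 0.14 and cyclin D1 (Ccnd1) fell by 2.22 ± 0.13. Progenitor markers (5 genes, Myb and Flt3 higher, Gata2 lower) summed to 14.6 to 17.2 CPM with PGE2 and 7.59 to 8.61 CPM with IL-4 alone. Macrophage markers (2 of 8 higher, 2 lower) summed to 17017 to 18869 CPM with PGE2 and 15695 to 17072 CPM with IL-4 alone, and the part of either list in the result was not tested.

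Valinomycin added to IL-4 went with higher, not lower, levels of many of the same genes. Of the 46, 23 were higher, against 19.4% of all genes, 2 were lower, against 18.9%, and 21 did not pass, with a median log2 fold change of 0.20. Higher were all 3 cytokinesis genes, 5 of 6 chromosome structure genes, 6 of 8 kinesins and 3 of 4 spindle assembly factors. The 4 chromosomal passenger genes lay between -0.13 and 0.15 on the log2 scale and did not pass.

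Mki67 was at 321, 320 and 294 CPM with valinomycin and at 250, 224 and 219 CPM with IL-4 alone, a rise of 0.43 ± 0.06 on the log2 scale (adjusted p = 8.28e-06) without overlap. Ncapg, a condensin subunit, was at 29.7, 30.5 and 27.4 CPM with valinomycin, against 20.8, 21.4 and 20.6 CPM (0.48 ± 0.08, adjusted p = 2.83e-05). Kif4, a chromosome-arm motor, was at 28.3, 29.0 and 26.3 CPM, against 21.2, 20.7 and 20.5 CPM (0.42 ± 0.08). In all 3 genes every valinomycin library stood above every IL-4 library. Tpx2, which activates Aurka on the spindle, was at 75.2, 69.8 and 67.7 CPM with valinomycin and 54.8, 56.1 and 55.7 CPM with IL-4 alone (0.35 ± 0.06, adjusted p = 2.45e-05). Top2a was at 200, 193 and 193 CPM with valinomycin, above its 3 IL-4 libraries (0.19 ± 0.05, adjusted p = 0.00178). Ccnb1, at 34.0, 30.4 and 30.2 CPM, was above its IL-4 libraries by 0.21 ± 0.08 (adjusted p = 0.0465), a call lost with DESeq2 (adjusted p = 0.0893), with only the compared groups (0.0542) and without IL-4 replicate 2, valinomycin replicate 1 or any 1 unstimulated library (0.0525 to 0.236).

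Cdk1 (71.3, 73.4 and 65.1 CPM with valinomycin), Plk1 (25.3, 23.3 and 25.6 CPM), Cdc20 (35.8, 31.5 and 29.7 CPM) and Aurkb (21.0, 23.6 and 21.2 CPM) all overlapped their IL-4 libraries, with log2 fold changes of -0.03, -0.04, 0.08 and 0.10. The 2 genes that were lower were Mad2l1, at 24.5, 25.6 and 25.7 CPM with valinomycin against 33.5, 31.6 and 34.5 CPM (-0.40 ± 0.07, adjusted p = 4.89e-05), and Espl1, the separase that cleaves cohesin. Espl1 was at 17.7, 17.0 and 15.9 CPM with valinomycin and 21.4, 19.5 and 18 CPM with IL-4 alone (-0.22 ± 0.09, adjusted p = 0.0493). Espl1 lost this call with RLE scaling, no filter, only the compared groups or DESeq2, and without any 1 of the 12 libraries except IL-4 replicate 3 (adjusted p = 0.055 to 0.211), so the count of lower genes was 1 in each of these but 2 without valinomycin replicate 1. The S phase list moved the other way from the mitotic genes, with 21 of 40 lower and 1 higher, while of the 75 other pathway genes 24 rose and 4 fell. Foxm1 and Mybl2 had log2 fold changes of 0.13 ± 0.08 and -0.08 ± 0.14 and did not pass. Of the 8 macrophage markers 1 was higher and 2 were lower with valinomycin, with sums of 14361 to 15158 CPM with valinomycin and 15695 to 17072 CPM with IL-4 alone, whose part was not tested.

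PGE2 and valinomycin, both on IL-4, stood apart for most of these genes. With PGE2, 39 of the 46 were lower than with valinomycin, against 31.5% of all genes called lower and 31.7% called higher, and the other 7 did not pass, with a median log2 fold change of -0.49. All 8 kinesins, all 6 chromosome structure genes, all 4 chromosomal passenger genes and all 3 cytokinesis genes were lower. Anln was at 28.0, 24.8 and 25 CPM with PGE2 and 51.8, 51.9 and 50.2 CPM with valinomycin (-0.98 ± 0.06, adjusted p = 4.19e-12). Kif2c, which takes microtubules off kinetochores, was at 12.3, 14.3 and 12.8 CPM with PGE2 and 24.4, 26.2 and 23.2 CPM with valinomycin (-0.90 ± 0.09), and Kif11, the motor that pushes spindle poles apart, at 30.9, 32.3 and 31.7 CPM, against 51.7, 55.6 and 53.7 CPM (-0.76 ± 0.06). The libraries were fully apart for all 3 genes. Kif15 was at 12.7, 13.0 and 13.1 CPM with PGE2 and 23.8, 23.2 and 24.8 CPM with valinomycin (-0.89 ± 0.08), and Tpx2 at 46.6, 42.0 and 43.3 CPM, against 75.2, 69.8 and 67.7 CPM (-0.69 ± 0.06). Mki67 was lower by 0.75 ± 0.06, Cdc20 by 0.82 ± 0.09, Aurkb by 0.56 ± 0.09, Ccnb1 by 0.54 ± 0.08, Top2a by 0.43 ± 0.05 and Plk1 by 0.36 ± 0.08 on the log2 scale in PGE2 libraries. Cdk1 overlapped (-0.07 ± 0.06, adjusted p = 0.282). Progenitor markers (Cd34, Myb and Flt3 higher, Kit and Gata2 lower) summed to 14.6 to 17.2 CPM with PGE2 and 7.03 to 8.75 CPM with valinomycin. Macrophage markers (5 of 8 higher, 2 lower) summed to 17017 to 18869 CPM with PGE2 and 14361 to 15158 CPM with valinomycin, and of 5 tested neutrophil markers Ngp and S100a8 were higher, with sums of 251 to 332 CPM with PGE2 and 203 to 271 CPM with valinomycin. Their part in the result was not tested.

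**Figure D2:**
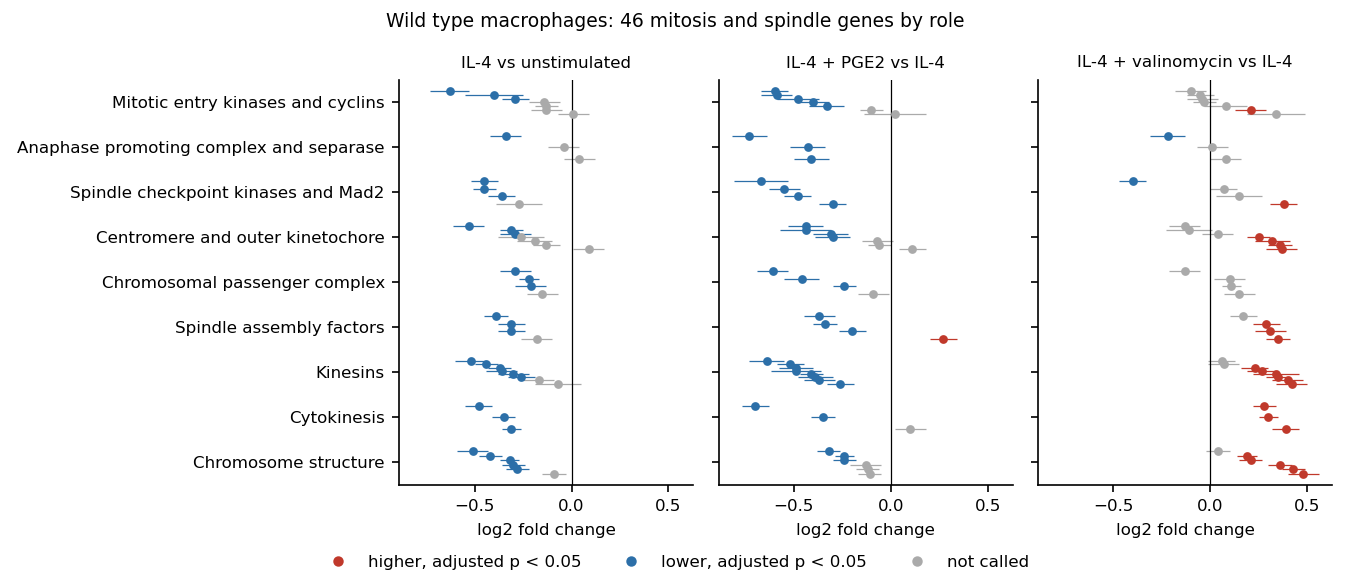
Log2 fold change of each of the 46 genes, grouped by role, in the wild type comparisons, with SE bars and colour for calls at an adjusted p under 0.05. Blue points (lower) dominate with IL-4 (30 genes) and with PGE2 (35 genes), and red points (higher) with valinomycin (23 genes).

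In hairpin cells IL-4 lowered most of the set, and the fall was tested in each hairpin group. In shEtv1 cells 33 of 46 genes were lower with IL-4 than without stimulus, against 7.16% of all genes, 1 was higher, against 10.9%, and 12 did not pass, with a median log2 fold change of -0.59. In shCtrl cells 43 were lower, against 17.1% of all genes called lower and 17.2% called higher, with a median of -1.04; Spc24, Spc25 and Smc4 did not pass. Spc25, a subunit of the Ndc80 complex, was the gene that rose in shEtv1 cells, at 11.4, 9.21 and 11.6 CPM with IL-4 and 8.07, 8.04 and 7.50 CPM without (0.45 ± 0.15, adjusted p = 0.0368). That call was lost with DESeq2 and without shEtv1 unstimulated replicate 1, 2 or 3, shEtv1 IL-4 replicate 1 or 3, or shCtrl IL-4 replicate 1.

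In shEtv1 cells Top2a was at 49.1, 48.0 and 47.4 CPM with IL-4 and 76.0, 75.7 and 75.7 CPM without (-0.66 ± 0.06, adjusted p = 2.51e-07). Kif15 was at 3.83, 4.05 and 4.93 CPM with IL-4 and 9.95, 9.97 and 8.43 CPM without (-1.13 ± 0.18), and the checkpoint kinase Bub1 at 8.90, 10.6 and 9.40 CPM with IL-4 and 18, 20.7 and 17.6 CPM without (-0.96 ± 0.11). Ccna2 was at 11.4, 10.9 and 13.1 CPM with IL-4 and 21.9, 22.1 and 21.9 CPM without (-0.90 ± 0.11), and Prc1 at 14.3, 16.2 and 15.6 CPM with IL-4 and 27.2, 31.6 and 24.3 CPM without (-0.85 ± 0.10). For these 5 genes the shEtv1 groups did not overlap.

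The steepest falls in shCtrl cells were those of Cenpf, a kinetochore protein, at 12.5, 10.3 and 11.5 CPM with IL-4 and 39.0, 30.1 and 32.9 CPM without (-1.57 ± 0.13, adjusted p = 5.99e-09), and Kif2c, at 8.57, 8.36 and 7.44 CPM, against 25.5, 20.8 and 22 CPM (-1.49 ± 0.12). Top2a was at 66.0, 60.8 and 64.7 CPM with IL-4 and 157, 138 and 138 CPM without (-1.18 ± 0.06, adjusted p = 1.67e-11). Bub1b, the checkpoint protein BubR1, was at 14.2, 13.0 and 14.8 CPM with IL-4 and 38.3, 32.0 and 34.4 CPM without (-1.32 ± 0.10). In all 4 genes every IL-4 library lay below every unstimulated one. Ccna2 was at 22.3, 19.7 and 19.8 CPM with IL-4, against 52.3, 48.1 and 54.4 CPM (-1.32 ± 0.10), and Prc1, which bundles the central spindle, at 28.3, 29.1 and 27.4 CPM, against 70.0, 59.6 and 68.8 CPM (-1.23 ± 0.09).

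The kinases and regulators followed in both hairpin groups. Plk1 was at 5.59, 5.89 and 8.84 CPM with IL-4 and 11.8, 13.6 and 12.2 CPM without (-0.89 ± 0.16) in shEtv1 cells, and at 12.8, 10.4 and 10.4 CPM with IL-4 and 29.0, 22.7 and 28.5 CPM without (-1.24 ± 0.14) in shCtrl cells. Aurkb was at 7.24, 7.55 and 6.70 CPM with IL-4 and 11.0, 12.4 and 11.8 CPM without (-0.72 ± 0.12) in shEtv1 cells, and at 8.93, 11.0 and 9.47 CPM with IL-4 and 22.8, 19.5 and 21.1 CPM without (-1.12 ± 0.11) in shCtrl cells. Both genes were called in both groups, with libraries apart. Mki67 was at 49.8, 53.0 and 49.8 CPM with IL-4 and 70.2, 81.1 and 71.0 CPM without (-0.54 ± 0.09) in shEtv1 cells, and at 103, 82.9 and 90.8 CPM with IL-4 and 213, 179 and 181 CPM without (-1.05 ± 0.08) in shCtrl cells. Cdk1 was at 20.5, 23.5 and 21.8 CPM with IL-4 and 30.3, 31.6 and 28.0 CPM without (-0.45 ± 0.08) in shEtv1 cells, and at 26.1, 25.1 and 22.9 CPM with IL-4 and 42.1, 44.3 and 44.8 CPM without (-0.82 ± 0.08) in shCtrl cells. The falls of these 2 genes passed in both groups as well. Ccnb1 without stimulus was at 13.7, 15.1 and 13.8 CPM in shEtv1 and 37.4, 32.0 and 34.3 CPM in shCtrl cells, and fell with IL-4 by 0.53 ± 0.11 in shEtv1 and by 0.89 ± 0.10 in shCtrl cells. Cdc20 without stimulus was at 13.4, 14.8 and 15.1 CPM in shEtv1 and 33.3, 23.2 and 31.9 CPM in shCtrl cells, and fell by 0.69 ± 0.16 in shEtv1 and by 0.91 ± 0.14 in shCtrl cells. Of the 75 other pathway genes 32 fell and 3 rose with IL-4 in shEtv1 cells, and 55 fell and 3 rose in shCtrl cells. Progenitor markers (5 genes, 3 tested, Cd34 higher) summed to 39.9 to 43.3 CPM with IL-4 and 25.4 to 29.5 CPM without in shCtrl cells, and their part was not tested.

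The difference between these IL-4 effects was tested directly, as the shEtv1 effect minus the shCtrl effect. It was above 0 for 11 of the 46 genes, against 2.71% of all genes above 0 and 1.81% below, and the other 35 did not pass; the median was 0.40. Tpx2 (0.68 ± 0.11, adjusted p = 0.000769), Top2a (0.53 ± 0.09, adjusted p = 0.0012), Kif11 (0.65 ± 0.13), Kif2c (0.69 ± 0.18), Cenpf (0.74 ± 0.19) and Mki67 (0.50 ± 0.12) were among the 11, each with a smaller fall in shEtv1 cells. Tpx2 was at 25.7, 27.1 and 27.0 CPM with IL-4 and 29.7, 32.9 and 29.2 CPM without in shEtv1 cells, and at 30.1, 31.4 and 29.2 CPM with IL-4 and 59.7, 50.6 and 57.0 CPM without in shCtrl cells. Kif11 was at 21.4, 19.2 and 19.4 CPM with IL-4 and 28.1, 28.8 and 29.3 CPM without in shEtv1 cells, and at 21.9, 21.5 and 19.9 CPM with IL-4 and 53.3, 42.8 and 46.9 CPM without in shCtrl cells. Single libraries weigh on this count: it was 5 without shEtv1 unstimulated replicate 1 or 3, shEtv1 IL-4 replicate 2 or shCtrl IL-4 replicate 3, 6 without shEtv1 IL-4 replicate 3, 3 without shCtrl unstimulated replicate 1 and 7 without shCtrl unstimulated replicate 3. Kif2c lost its call with DESeq2 (adjusted p = 0.0633) and without replicate 1 or 3 of shEtv1 unstimulated or shCtrl IL-4, any 1 shEtv1 IL-4 library, or shCtrl unstimulated replicate 1 (0.0503 to 0.0935). Cenpf lost its call without replicate 2 or 3 of shEtv1 unstimulated, shEtv1 IL-4 or shCtrl IL-4, or shCtrl unstimulated replicate 1 (0.0502 to 0.114). Mki67 lost its call without shEtv1 unstimulated replicate 1 or 3 or shCtrl unstimulated replicate 1 (0.0519 to 0.0571).

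PGE2 added to IL-4 gave few calls in shEtv1 cells and lowered most of the set in shCtrl cells. In shEtv1 cells 5 of the 46 were lower with PGE2, against 22.8% of all genes, 3 were higher, against 24.6%, and 38 did not pass, with a median log2 fold change of -0.03. In shCtrl cells 36 were lower, against 30.1% of all genes, 4 were higher, against 29.3%, and 6 did not pass, with a median of -0.72. In shEtv1 cells the 5 became 3 with no filter, with DESeq2 and without shEtv1 IL-4 replicate 1 or 3 or shEtv1 IL-4 with PGE2 replicate 1, and 2 without shEtv1 IL-4 with PGE2 replicate 3. The 3 became 5 without shEtv1 unstimulated replicate 1. Progenitor markers (3 tested) summed to 8.53 to 11.5 CPM with PGE2 and 5.8 to 7.72 CPM with IL-4 alone in shEtv1 cells, with Cd34 and Myb higher and Gata2 lower, and to 60.3 to 72.1 CPM with PGE2 and 39.9 to 43.3 CPM with IL-4 alone in shCtrl cells, with Cd34 and Myb higher. Macrophage markers summed to 9782 to 10386 CPM with PGE2 and 9466 to 10065 CPM with IL-4 alone in shEtv1 cells (1 of 8 higher, 2 lower), and to 19329 to 21465 CPM with PGE2 and 15895 to 17064 CPM with IL-4 alone in shCtrl cells (3 of 8 higher, 3 lower). Mpo, an early granulocyte marker, was higher with PGE2 in shCtrl cells, and the part of these markers was not tested.

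In shEtv1 cells Ccnb2 was at 6.47, 6.30 and 6.31 CPM with PGE2 and 7.76, 6.72 and 8.0 CPM with IL-4 alone (-0.23 ± 0.14, adjusted p = 0.166). In shCtrl cells it was at 6.34, 4.22 and 4.78 CPM with PGE2 and 15.2, 14.7 and 15.7 CPM with IL-4 alone, a fall of 1.59 ± 0.13 (adjusted p = 2.1e-09). With PGE2 the libraries of the hairpin groups overlapped, and with IL-4 alone every shEtv1 library lay below every shCtrl one. Cenpf was at 8.49, 6.30 and 8.22 CPM with PGE2 and 6.93, 9.39 and 7.72 CPM with IL-4 alone in shEtv1 cells, which overlapped (-0.06 ± 0.15, adjusted p = 0.775). In shCtrl cells it was at 4.15, 3.64 and 3.88 CPM with PGE2 and 12.5, 10.3 and 11.5 CPM with IL-4 alone (-1.56 ± 0.16, adjusted p = 5.42e-08), fully apart. Ccnb1 was at 9.16, 8.53 and 9.60 CPM with PGE2 and 9.0, 10.0 and 10.4 CPM with IL-4 alone in shEtv1 cells (-0.11 ± 0.12), while in shCtrl cells it was at 8.90, 7.74 and 6.47 CPM with PGE2 and 19.0, 17.4 and 19.6 CPM with IL-4 alone (-1.33 ± 0.11). Cdc20 had a like shape, with 7.31, 7.31 and 7.18 CPM with PGE2 and 8.38, 9.02 and 9.49 CPM with IL-4 alone in shEtv1 cells (-0.30 ± 0.18, adjusted p = 0.166), and 8.05, 5.16 and 5.46 CPM with PGE2 and 15.6, 12.9 and 18.6 CPM with IL-4 alone in shCtrl cells (-1.38 ± 0.17). In shEtv1 cells the PGE2 and IL-4 libraries of Cdc20 and of Ccnb2 did not overlap, though neither fall passed.

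Plk1 was at 6.14, 5.49 and 6.05 CPM with PGE2 and 5.59, 5.89 and 8.84 CPM with IL-4 alone (-0.20 ± 0.17) in shEtv1 cells, which did not pass, and at 5.85, 5.51 and 4.82 CPM with PGE2 and 12.8, 10.4 and 10.4 CPM with IL-4 alone (-1.10 ± 0.16) in shCtrl cells. Mki67 was at 47.4, 46.1 and 42.6 CPM with PGE2 and 49.8, 53.0 and 49.8 CPM with IL-4 alone (-0.16 ± 0.09) in shEtv1 cells, which did not pass, and at 55.0, 56.3 and 49.6 CPM with PGE2 and 103, 82.9 and 90.8 CPM with IL-4 alone (-0.79 ± 0.09) in shCtrl cells. In shEtv1 cells the Mki67 libraries did not overlap, and its fall passed with only the compared groups (adjusted p = 0.0367). Aurkb was at 5.97, 7.01 and 6.75 CPM with PGE2 and 7.24, 7.55 and 6.70 CPM with IL-4 alone (-0.13 ± 0.13) in shEtv1 cells, which overlapped, and at 5.85, 7.15 and 7.12 CPM with PGE2 and 8.93, 11.0 and 9.47 CPM with IL-4 alone (-0.52 ± 0.12) in shCtrl cells. All 3 genes passed in shCtrl cells. Top2a fell in both: it was at 44.5, 41.9 and 38.2 CPM with PGE2 and 49.1, 48.0 and 47.4 CPM with IL-4 alone in shEtv1 cells (-0.21 ± 0.06, adjusted p = 0.0108; 0.0756 without shEtv1 IL-4 with PGE2 replicate 3), and at 39.6, 38.7 and 37.8 CPM with PGE2 and 66.0, 60.8 and 64.7 CPM with IL-4 alone (-0.73 ± 0.06) in shCtrl cells. Also lower in shEtv1 cells were Pbk, at 2.69, 3.66 and 2.94 CPM with PGE2 and 4.14, 5.34 and 5.77 CPM with IL-4 alone (-0.73 ± 0.20), and Kif11, at 12, 15.1 and 14.4 CPM with PGE2 and 21.4, 19.2 and 19.4 CPM with IL-4 alone (-0.53 ± 0.10). Kif2c was at 4.2, 4.77 and 4.76 CPM with PGE2 and 6.21, 5.80 and 5.95 CPM with IL-4 alone (-0.39 ± 0.15), a call lost with DESeq2, with no filter and without any 1 of those 6 libraries (adjusted p = 0.0524 to 0.124). The last of the 5, Bub1b, fell by 0.28 ± 0.12 (adjusted p = 0.0499). Its call was lost with RLE scaling, no filter, the replicate block, only the compared groups and DESeq2. It was also lost in 11 of 18 fits that left out 1 library, those without any 1 shEtv1 unstimulated or shCtrl IL-4 library, replicate 1 or 3 of shEtv1 IL-4 or of shEtv1 IL-4 with PGE2, or shCtrl unstimulated replicate 3 (adjusted p = 0.0503 to 0.145).

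A few genes rose with PGE2. Cenpa was at 25, 24.8 and 26.7 CPM with PGE2 and 7.66, 10.7 and 11.5 CPM with IL-4 alone in shEtv1 cells (1.35 ± 0.15, adjusted p = 9.57e-07). In shCtrl cells it was at 49.4, 65.2 and 53.9 CPM with PGE2 and 20.1, 17.7 and 19.0 CPM with IL-4 alone (1.56 ± 0.14, adjusted p = 1.52e-08), and in both hairpin groups the libraries were fully apart. Spc25 rose by 0.90 ± 0.13 in shEtv1 cells (20.8, 18 and 20.9 CPM with PGE2, against 11.4, 9.21 and 11.6 CPM) and by 0.43 ± 0.12 in shCtrl cells (26.3, 19.0 and 22.5 CPM, against 16.6, 17.3 and 16.2 CPM). Aurka was at 13.2, 14.3 and 13.2 CPM with PGE2 and 11.7, 11.6 and 7.72 CPM with IL-4 alone in shEtv1 cells, and its log2 fold change of 0.39 ± 0.16 did not pass (adjusted p = 0.0556). It did pass with only the compared groups, without the 3 shCtrl libraries numbered 2, and without shEtv1 unstimulated replicate 1 or replicate 1 or 2 of shEtv1 IL-4 or shCtrl IL-4 (0.0258 to 0.0497). In shCtrl cells it rose by 0.74 ± 0.16, with 19.0, 18.3 and 19.5 CPM with PGE2 and 13.4, 8.13 and 12.1 CPM with IL-4 alone. Cdk1 was at 23.3, 23.3 and 26.5 CPM with PGE2 and 20.5, 23.5 and 21.8 CPM with IL-4 alone in shEtv1 cells, which overlapped (0.15 ± 0.08), and rose by 0.35 ± 0.08 in shCtrl cells (31.0, 33.2 and 30.8 CPM with PGE2, against 26.1, 25.1 and 22.9 CPM). Ect2, the activator of RhoA in cytokinesis, rose by 0.34 ± 0.12 in shEtv1 cells (11.8, 12.8 and 13.8 CPM with PGE2, against 9.11, 10.9 and 10.3 CPM; adjusted p = 0.0273), a call lost with DESeq2 (0.0625) and without shEtv1 IL-4 replicate 1 or 3 or shEtv1 IL-4 with PGE2 replicate 2 or 3 (0.0518 to 0.115). Of the 75 other pathway genes 13 rose and 5 fell with PGE2 in shEtv1 cells, against 24.6% of all genes higher and 22.8% lower. In shCtrl cells 13 rose and 29 fell, against 29.3% of all genes higher and 30.1% lower.

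**Figure D3:**
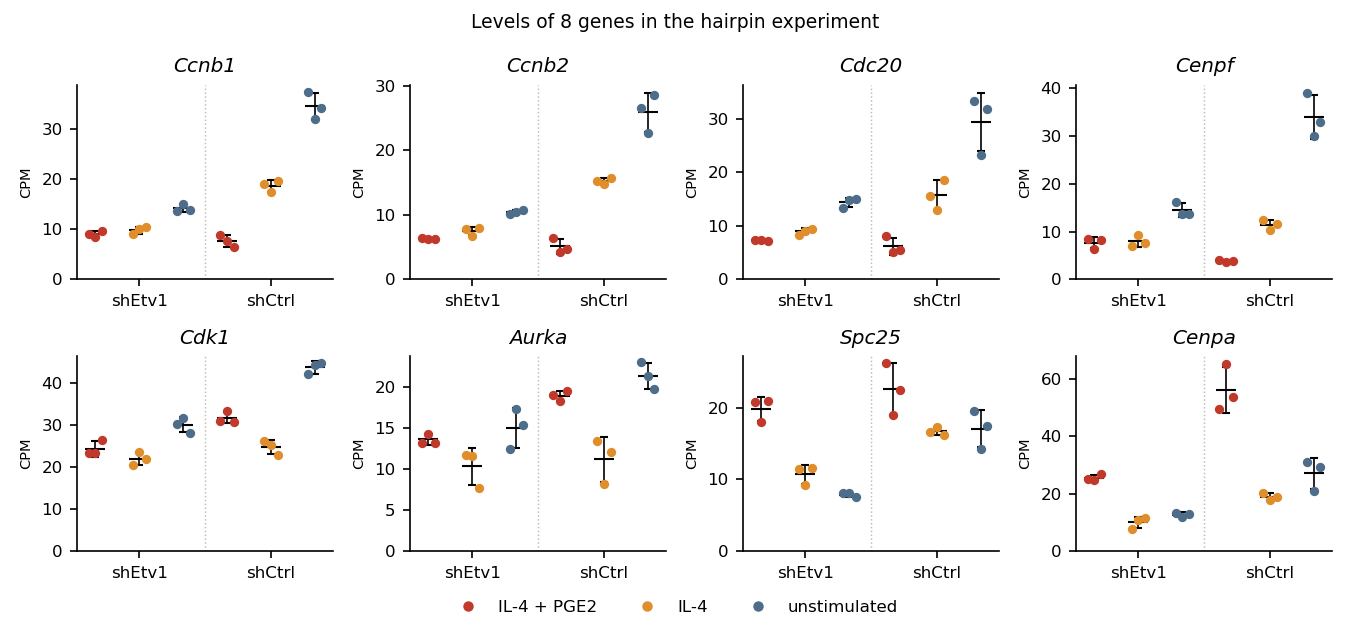
CPM of 8 genes in every library of the hairpin experiment (points) with mean and SD (bars). Ccnb1, Ccnb2, Cdc20 and Cenpf are lower with PGE2 than with IL-4 alone in shCtrl cells (Cenpf at 3.64 to 4.15 CPM, against 10.3 to 12.5 CPM), while Cenpa and Spc25 are higher with PGE2 in both hairpin groups.

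The PGE2 effect in shEtv1 cells minus that in shCtrl cells was above 0 for 24 of the 46 genes, against 6.03% of all genes above 0 and 5.58% below, and the other 22 did not pass, with a median of 0.61. All 3 cytokinesis genes, all 3 genes of the anaphase promoting complex and separase and 6 of 8 kinesins were among the 24, with 4 of 7 genes of mitotic entry, 2 of 7 of the kinetochore and 1 of 4 each of the chromosomal passenger complex and the checkpoint. Of the 2 kinetochore genes, Nuf2 lost its call with DESeq2, no filter and only the compared groups. It also lost its call in 12 of 18 fits that left out 1 library (adjusted p = 0.0501 to 0.147). The largest differences were those of Cenpf (1.5 ± 0.22, adjusted p = 0.000153), Ccnb2 (1.36 ± 0.19, adjusted p = 9.18e-05), Ccnb1 (1.22 ± 0.16, adjusted p = 7.47e-05) and Anln (1.19 ± 0.17, adjusted p = 0.000147). Cdc20 differed by 1.07 ± 0.24, Plk1 by 0.90 ± 0.24, Mki67 by 0.63 ± 0.12 and Top2a by 0.51 ± 0.09; Plk1 lost its call without shCtrl IL-4 replicate 1 (adjusted p = 0.0504) or shCtrl IL-4 with PGE2 replicate 3 (0.0701). Of the 5 genes that rose with PGE2 in one or both hairpin groups, Ect2 was among the 24 (0.73 ± 0.17, adjusted p = 0.00692), having fallen by 0.39 ± 0.12 in shCtrl cells. The others gave differences that did not pass: -0.21 ± 0.21 for Cenpa, -0.35 ± 0.23 for Aurka, -0.20 ± 0.11 for Cdk1 and 0.46 ± 0.18 for Spc25 (adjusted p = 0.109, and 0.0375 with the replicate block). Of the 75 other pathway genes 9 were above 0 and 1 below, and of the 40 replication genes 1 was above and 1 below. Foxm1 (0.23 ± 0.17) and Mybl2 (-0.36 ± 0.34) did not pass. Mcm6, a replicative helicase subunit, fell with PGE2 by 1.27 ± 0.06 in shEtv1 and by 1.89 ± 0.06 in shCtrl cells. Of the 40 replication genes, 20 were lower and 4 higher with PGE2 in shEtv1 cells (median log2 fold change -0.31), against 22.8% of all genes lower and 24.6% higher. In shCtrl cells 19 were lower and 7 higher (median -0.25), against 30.1% of all genes lower and 29.3% higher. Rfc3, a clamp loader subunit, rose by 0.81 ± 0.11 in shEtv1 and by 0.76 ± 0.11 in shCtrl cells.

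**Figure D4:**
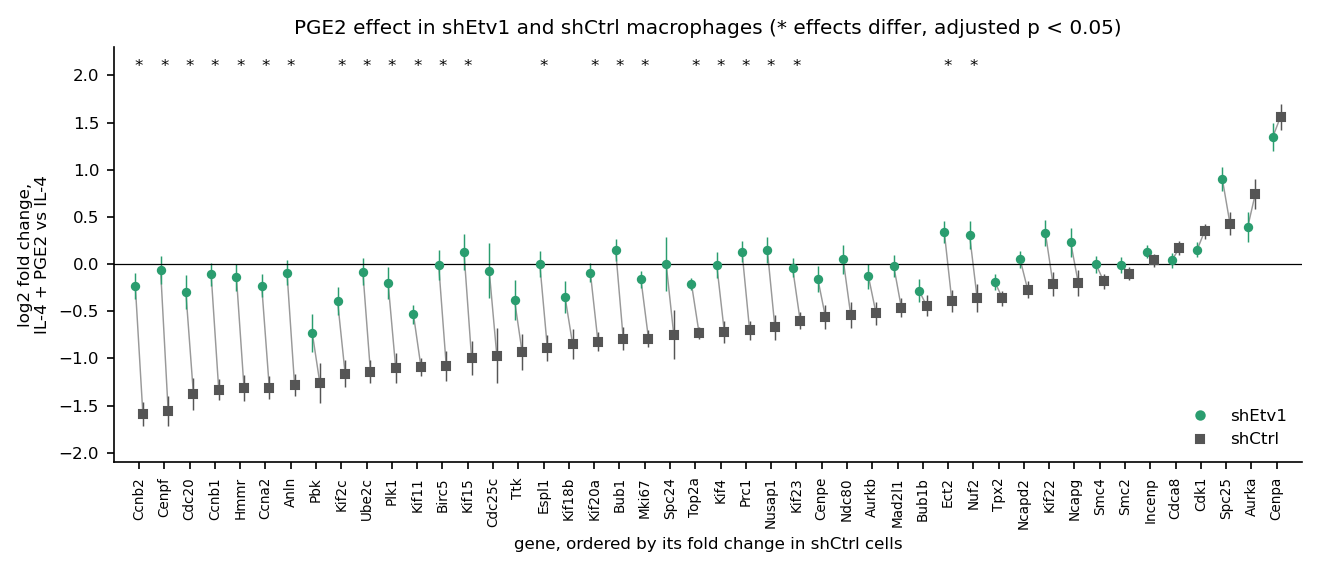
Log2 fold change with PGE2 on IL-4 for each of the 46 genes in shEtv1 (circles) and shCtrl (squares) cells, ordered by the fold change in shCtrl cells, with SE bars and stars for the 24 genes whose effects differed. Genes at the left end fell by up to 1.59 in shCtrl cells. Of these, Ccnb2, Cenpf and Ccnb1 lie nearer 0 in shEtv1 cells, while Pbk (-0.73) and Kif11 (-0.53) fell there too. Cenpa at the right end rose in both.

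The Etv1 hairpin was set against the control hairpin in each condition. Without stimulus all 46 genes were lower in shEtv1 cells, against 26.8% of all genes called lower and 24.9% called higher, with a median log2 fold change of -0.95 and a range of -1.63 to -0.23. With IL-4, 33 were lower, against 25.6% of all genes called lower and 25.4% called higher, and 13 did not pass, with a median of -0.52. With IL-4 and PGE2, 10 were higher, against 27.6%, 8 were lower, against 26.7%, and 28 did not pass, with a median of 0.04. As shares of the 46, both counts in that last condition were below those of all genes.

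Without stimulus Anln was at 15.1, 17.2 and 15 CPM in shEtv1 cells and 53.8, 43.5 and 49.1 CPM in shCtrl cells (-1.63 ± 0.10, adjusted p = 1.76e-10). Nusap1, which stabilises spindle microtubules near chromatin, was at 8.88, 9.38 and 10.1 CPM in shEtv1 cells and 27.4, 26.2 and 24.0 CPM in shCtrl cells (-1.45 ± 0.12). Mki67 was at 70.2, 81.1 and 71.0 CPM in shEtv1 cells and 213, 179 and 181 CPM in shCtrl cells (-1.37 ± 0.08, adjusted p = 1.1e-10). These groups were far from overlapping, with the highest shEtv1 library of each gene below the lowest shCtrl one. Ccnb1 was lower by 1.28 ± 0.10, Plk1 by 1.09 ± 0.14, Cdc20 by 1.02 ± 0.14, Top2a by 0.93 ± 0.06, Aurkb by 0.85 ± 0.10 and Cdk1 by 0.55 ± 0.07 on the log2 scale. The smallest difference was that of Cdca8, a chromosomal passenger subunit (-0.23 ± 0.07, adjusted p = 0.0124, and 0.0516 with DESeq2).

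With IL-4, Anln was at 10.1, 9.48 and 8.84 CPM in shEtv1 cells and 23.1, 17.5 and 23.0 CPM in shCtrl cells (-1.17 ± 0.12, adjusted p = 9.9e-08). Kif4 was at 5.38, 5.25 and 4.09 CPM in shEtv1 cells and 10.6, 10.8 and 9.69 CPM in shCtrl cells (-1.08 ± 0.13), with no overlap. Ccnb2 was lower by 1.02 ± 0.12 and Prc1 by 0.88 ± 0.10. All 7 kinetochore genes were lower, while Cdk1 overlapped (-0.18 ± 0.08, adjusted p = 0.0779; 0.0463 without shEtv1 IL-4 replicate 2 and 0.0411 without shCtrl IL-4 replicate 3), as did Kif11 (-0.08 ± 0.10, adjusted p = 0.527). Of the 7, Nuf2 lost its call with DESeq2, with only the compared groups and in 3 of 18 fits that left out 1 library (adjusted p = 0.0602 to 0.237). Spc24 lost its call in 2 of 18 such fits (0.0534 to 0.0773).

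With IL-4 and PGE2, Cenpa was lower in shEtv1 cells (-1.14 ± 0.13, adjusted p = 8.46e-07), as were Aurka (-0.49 ± 0.15), Smc4 (-0.39 ± 0.08) and Cdk1 (-0.38 ± 0.08). Cenpf was higher by 0.99 ± 0.16 (adjusted p = 4.08e-05), Bub1 by 0.69 ± 0.12, Kif20a, the midzone motor of cytokinesis, by 0.57 ± 0.10 and Espl1 by 0.57 ± 0.14. Bub1 was at 10.8, 11.0 and 10.3 CPM in shEtv1 cells and 6.71, 7.86 and 5.86 CPM in shCtrl cells. Kif20a was at 16.5, 17.5 and 15.7 CPM in shEtv1 cells and 10.5, 12.1 and 11.0 CPM in shCtrl cells. Espl1 was at 9.58, 11.5 and 8.30 CPM in shEtv1 cells, against 7.07, 7.15 and 5.93 CPM, and for all 3 genes the groups did not overlap. Smc4 was at 66.0, 70.4 and 71.8 CPM in shEtv1 cells and 95.9, 80.9 and 95.0 CPM in shCtrl cells. Ccnb1 was higher by 0.29 ± 0.12 with overlapping libraries (adjusted p = 0.0463), a call lost with DESeq2 (0.123), with RLE scaling (0.0556), with no filter (0.0959), with only the compared groups (0.12) and without the shCtrl libraries numbered 2 (0.0577). It was also lost in 12 of 18 fits that left out 1 library, with adjusted p of 0.0504 to 0.468, the highest without shCtrl IL-4 with PGE2 replicate 3; the call held without shEtv1 IL-4 replicate 1, shEtv1 IL-4 with PGE2 replicate 2, shCtrl unstimulated replicate 1 or 2, shCtrl IL-4 replicate 2 or shCtrl IL-4 with PGE2 replicate 1. The 10 higher became 6 without replicate 2 of shEtv1 or replicate 3 of shCtrl under IL-4 with PGE2, and the 8 lower became 5 without replicate 3 of shEtv1 in that condition.

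Cell markers differed between the hairpin groups as well. Of the 8 macrophage markers 6 were lower and 1 (Adgre1) higher in shEtv1 cells without stimulus and with IL-4, and 5 were lower and 1 higher with PGE2. Their sum was 8902 to 9483 CPM in shEtv1 and 18311 to 20290 CPM in shCtrl libraries without stimulus. Progenitor markers (5 genes, 3 tested) summed to 7.57 to 8.61 CPM in shEtv1 and 25.4 to 29.5 CPM in shCtrl libraries without stimulus. Their sums were 8.53 to 11.5 CPM in shEtv1 and 60.3 to 72.1 CPM in shCtrl libraries under IL-4 with PGE2. Of the 3 tested, Cd34 was lower but Gata2 higher in shEtv1 cells, both unstimulated and given IL-4 alone. Once PGE2 was added, Cd34 and Myb were lower and none was higher. The part of these markers in the results was not tested. Of the 75 other pathway genes, 51 were lower and 4 higher in unstimulated shEtv1 cells, Foxm1 among them (log2 fold change -1.04 ± 0.11). Of the 40 replication genes 11 were lower and 7 higher, against 26.8% of all genes lower and 24.9% higher. Their median was -0.03, beside -0.95 for the mitotic genes. E2f1, an activator of replication genes, was higher in shEtv1 cells without stimulus (0.43 ± 0.08), with IL-4 (0.51 ± 0.08) and with IL-4 and PGE2 (0.66 ± 0.08).

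**Figure D5:**
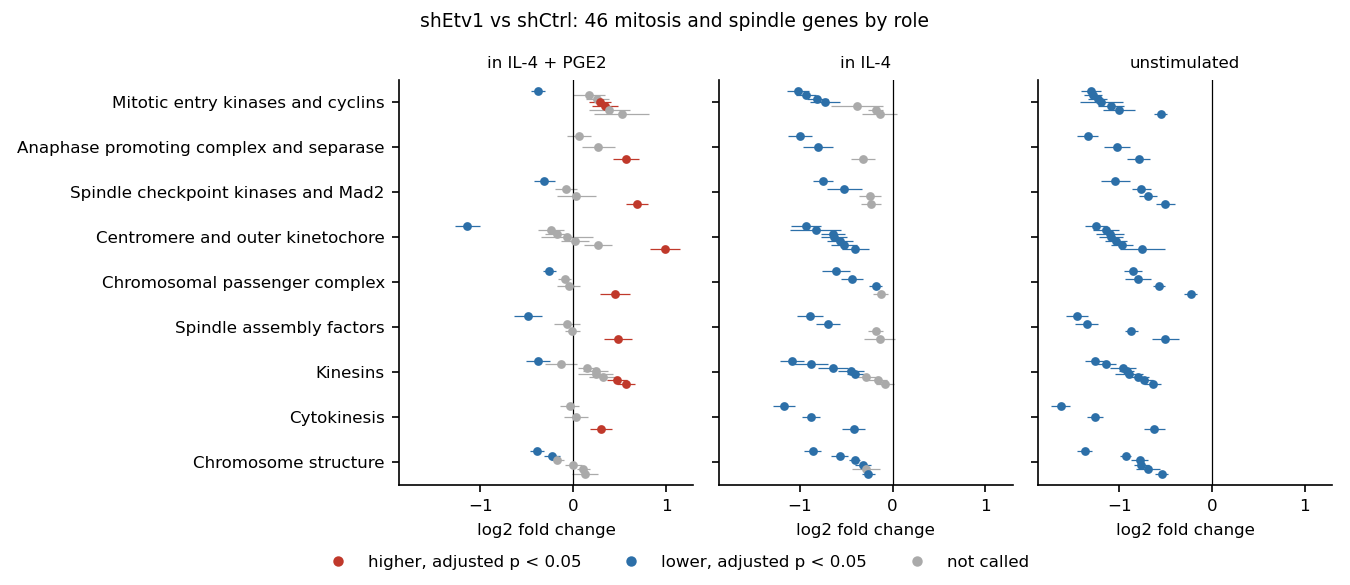
Log2 fold change of shEtv1 against shCtrl cells for each of the 46 genes, grouped by role, under IL-4 with PGE2, IL-4 alone and no stimulus, with SE bars and colour for calls at an adjusted p under 0.05. All 46 points lie below 0 without stimulus, while under IL-4 with PGE2 they straddle 0, with 10 higher and 8 lower.

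Members differed in how closely they followed the rest. Over the 12 wild type libraries the log2 CPM of Aurka had a Pearson r of 0.02 with the mean of the other members, Spc25 of 0.15 and Cenpa of 0.19, while the next lowest, Mad2l1, was at 0.65. Over the 18 hairpin libraries the lowest were Spc25 at -0.10 and Cenpa at -0.06, then Aurka at 0.44 and Smc4 at 0.48, and Prc1 was at 0.99. These values describe libraries that share treatments and depth and carry no test. Among 12615 tested genes outside the lists, those most like Top2a over the 12 wild type libraries were Pkp4 (r = 0.983), Ptafr (0.981) and Slc15a4 (0.98), given for their pattern alone.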

How the data were processed

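Poly(A) RNA libraries (TruSeq stranded, HiSeq) were sequenced, per the labels' protocols. The deposited values are raw read counts per Ensembl gene, which the authors made with STAR, featureCounts and GRCm38, per the submitters' processing notes; versions and the strand setting are not given in the sources used here. Symbols came from GENCODE M21 on GRCm38 (97.33% of IDs matched; unmatched IDs held 0.19% of reads), promoters from RefSeq.

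The wild type and hairpin libraries were fitted as separate experiments, every group included, in edgeR 4.0.16 (R 4.3.3, limma 3.58.1): TMM scaling, filterByExpr (12824 genes in wild type, 12382 in hairpin libraries; all 46 members passed in both), a robust quasi-likelihood test and Benjamini-Hochberg adjustment over all genes, called at 0.05. The SE of a log2 fold change is its size over the square root of F. CPM used TMM library sizes within an experiment. The fit was checked on simulated counts. The 46 members and the other lists were chosen with earlier results of these data known. Per-library values are given for Ccnb1, Cdk1, Plk1, Cdc20, Aurkb, Top2a and Mki67, and per comparison for up to 3 called members each way by smallest adjusted p and up to 3 by size; other values illustrate a role. For members picked by adjusted p or size, libraries lying apart follow largely from the pick and add no support. The share of all genes whose libraries lie apart is not given. Replicate numbers were not used to pair libraries. Alternatives were DESeq2 1.42.0, RLE scaling, no filter, a replicate block, only the compared groups, each library left out and, chosen after seeing the data, no shCtrl libraries numbered 2.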

Additional observations from a re-analysis of the deposited data

Results flagged for a closer look

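The effects of PGE2 and of IL-4 differed between hairpin groups by direct test (edgeR's quasi-likelihood interaction term, shEtv1 effect minus shCtrl effect, n = 3 libraries a group). For PGE2, 24 of the 46 members had a difference above 0, against 6.03% of all genes above 0 and 5.58% below. Named members of the 24, on the log2 scale, were Cenpf at 1.5, Ccnb2 at 1.36, Ccnb1 at 1.22 and Anln at 1.19. Cdc20 at 1.07, Plk1 at 0.9, Mki67 at 0.63 and Top2a at 0.51 were also among them. Leaving out 1 library gave 20 to 25 members above 0, and Plk1 lost its call in 2 of 18 such fits. For IL-4, 11 of the 46 members had a difference above 0, against 2.71% of all genes above 0 and 1.81% below. Among the 11 were Cenpf at 0.74, Kif2c at 0.69, Tpx2 at 0.68, Kif11 at 0.65, Top2a at 0.53 and Mki67 at 0.5. This count is less firm, at 3 to 13 members when 1 library was left out. Of 18 such fits, Kif2c lost its call in 8, Cenpf in 7 and Mki67 in 3. Kif2c also lost its call with DESeq2 (adjusted p = 0.0633).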

How the results depend on the processing

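Replicate numbers were not taken as pairs, since not every same-number pair of libraries correlated above 0.1: 5 of 18 did in wild type (median 0.0391, against -0.0134 for other pairs) and 34 of 45 in hairpin libraries (median 0.153, against -0.0895), where the part of a factor shared by number was not tested. The replicate block is therefore an alternative. It gave 30 and 35 members lower for IL-4 and PGE2 in wild type cells, 43 lower for IL-4 in shCtrl cells, 46 lower for unstimulated shEtv1 cells, and 25 and 14 above 0 for the hairpin difference in PGE2 effect and in IL-4 effect, and among the calls it moved were those of Bub1b with PGE2 in shEtv1 cells (lost), Spc25 in the PGE2 effect difference (gained) and Cdk1 in the IL-4 effect difference (gained, 0.368, adjusted p = 0.0446). With every library kept, 599 of the named members' called values stayed called and 16 lost the call, and 4 uncalled values gained one. Leaving out 1 library lost 73 and kept 1919, and leaving out the 3 shCtrl libraries numbered 2 lost 1 and kept 85. The fits that left out 1 library include those where it came from a group not compared. A call has less reason to move there, so the pooled figures can overstate how firm the calls are.

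Counts that moved by over 1.5 times were these, and the cause was not tested. Members lower with valinomycin: 1 under RLE, no filter, only the compared groups and DESeq2, and 1 to 2 leaving out a library. Higher with IL-4 in shEtv1 cells: 0 with DESeq2, 0 to 1 leaving out a library. With PGE2 in shEtv1 cells, 2 to 5 were higher and 2 to 6 lower leaving out a library, and 3 lower with no filter and with DESeq2. For shEtv1 against shCtrl with PGE2, leaving out a library gave 6 to 10 higher and 5 to 9 lower, and for the difference of IL-4 effects 3 to 13 above 0.

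Signs of uncalled values turned when 1 library was left out: Cdk1 (-0.051 to 0.031) and Plk1 (-0.052 to 0.019) with valinomycin, Plk1 with PGE2 in shEtv1 cells (-0.318 to 0.039) and Aurkb in shEtv1 against shCtrl with PGE2 (-0.14 to 0.016). Depth limits Cdc25c, Pbk and Spc24 most, with 7, 13 and 14 counts in their lowest hairpin libraries.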
